A study of Caenorhabditis elegans with 4 samples.

Results

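The regions described here are the LIN-61 binding sites that lie in the piRNA gene clusters of chromosome IV in Caenorhabditis elegans. The left cluster was taken as chromosome IV, 4500001 to 7000000, and the right cluster as 13500000 to 17200000, on genome build WormBase WS220. A peak of the series' combined list was a member when its centre lay in either stretch, a rule that uses no measured signal. This gave 630 members, 189 in the left cluster and 441 in the right cluster, of 2414 combined peaks on chromosome IV and 13662 in all. The same rule found 535 peaks in the list of ChIP replicate 1 (166 left, 369 right) and 399 in that of replicate 2 (95 left, 304 right).

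The assay was ChIP-seq, in which DNA crosslinked to a protein is pulled down with an antibody and sequenced; it was run on whole larvae, so each peak is an average over the tissues of the animal. All libraries came from the laboratory strain N2 with a wild type genotype, harvested as L3 larvae from a mixed population of males and hermaphrodites, with 20 degrees Celsius given as the temperature. There were 2 ChIP libraries, for which a polyclonal serum raised in rabbit against LIN-61 was affinity purified, and 2 libraries of input DNA. No library without LIN-61 is among these samples, and input peaks were not analysed here, so the contrast with background rests on the authors' peak calls. Library depth is unknown, since only peaks were used. Whether the replicates were separate worm cultures is not stated, and their spread may be technical. With 2 ChIP libraries and no second ChIP group, no comparison over samples can be tested; each difference between regions below is a description, read against the spread between the replicate lists.

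LIN-61 is a chromatin protein built of MBT repeats, which dock onto methylated lysines of histones; its best known ligand is the H3K9 methylation of heterochromatin, and it takes part in keeping vulval cell fates repressed. The piRNAs of this nematode are short germline RNAs loaded onto the Piwi protein PRG-1, which scans germline transcripts and sets off silencing of foreign sequences. Most piRNA genes are tiny separate transcription units, each with its own upstream motif, packed between and inside ordinary genes of chromosome IV. In the RefSeq gene table of assembly WBcel235, 14714 of 15363 genes of the piRNA class (95.8%) are on chromosome IV. That table is on another build than the peaks, so no piRNA gene was placed against a peak, and the clusters are known here by their limits only.

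The piRNA clusters were poorer in LIN-61 peaks than the rest of chromosome IV taken as a whole, and the right cluster was richer than the left in every list. The clusters make up 35.4% of the length of IV and held 26.1% of its combined peaks. The left cluster had 75.6 combined peaks per Mb, 66.4 for replicate 1 and 38.0 for replicate 2 (replicate mean 52.2 ± 20.1, SD, n = 2). The right cluster had 119.2 combined peaks per Mb, 99.7 for replicate 1 and 82.2 for replicate 2 (replicate mean 90.9 ± 12.4, SD, n = 2). The replicate values of the clusters did not overlap. The rest of IV had 158 combined peaks per Mb, with 143.8 in replicate 1 and 114.4 in replicate 2.

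The low overall value of the clusters depends on what they are set against, because the outer left arm of IV is far denser than everything else on the chromosome. The stretch left of the clusters, 4.5 Mb long, had 277.8 combined peaks per Mb, 3.67 times the left cluster and 2.33 times the right cluster. The 6.5 Mb between the clusters, which cover the chromosome's gene-rich centre, had 79.4. Against that centre the left cluster was about level, with a ratio of 0.95 in the combined list (1.05 for replicate 1, 0.85 for replicate 2). The right cluster was above the centre in every list, at 1.50 times in the combined list (1.58 times for replicate 1, 1.84 times for replicate 2). The short right end beyond the right cluster had 61.3 combined peaks per Mb from only 18 peaks.

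**Figure D1:**
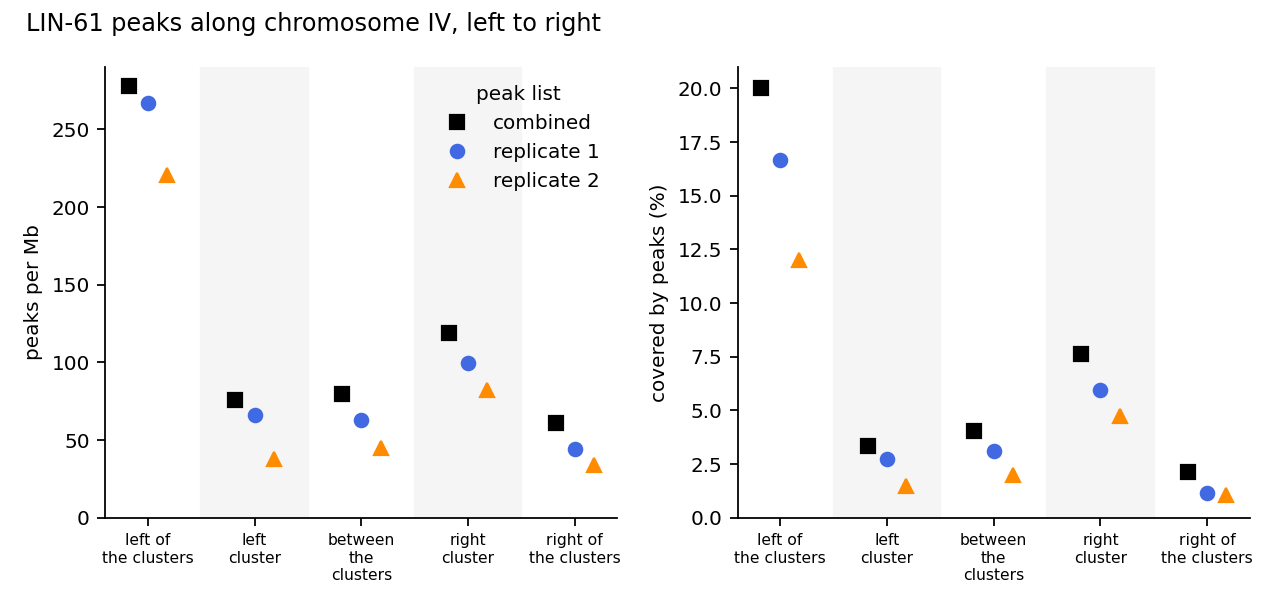
LIN-61 peaks per Mb (left panel) and percent of sequence covered by peaks (right panel) in the 5 stretches of chromosome IV, from left to right, with 1 symbol for each peak list and the clusters shaded. The left cluster lies near the stretch between the clusters, the right cluster lies above it, and the stretch left of the clusters is highest in all 3 lists.

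By covered length, too, the right cluster was above the left in every list. Peaks covered 3.32% of the left cluster in the combined list (2.71% for replicate 1, 1.49% for replicate 2). They covered 7.61% of the right cluster in the combined list (5.94% for replicate 1, 4.76% for replicate 2). The right cluster was thus covered 2.29 times as densely as the left in the combined list (2.19 times for replicate 1, 3.19 times for replicate 2). For comparison, peaks covered 20.0% of the stretch left of the clusters and 4.05% of the stretch between them. Against the stretch between, the left cluster was lower by covered length in each list, also in replicate 1 (2.71% and 3.13%), where it had been slightly higher in peaks per Mb.

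Since peak density changes with the position along a chromosome, each cluster was set beside the stretches at the same fraction of the length of chromosomes I, II, III and V. The left cluster spans 25.7% to 40.0% of chromosome IV from its left end, where an arm passes into the centre. Its 75.6 combined peaks per Mb lay within the range of the other 4 autosomes, 54.5 on V to 110.7 on III. In replicate 1 its 66.4 also lay within their range, 41.8 to 98.0. In replicate 2 its 38.0 was just under their lowest value of 38.8. By covered length it was the lowest of the 5 in the combined list, at 3.32% against 3.33% for the next, and in replicate 2, at 1.49% against 1.61%, but not in replicate 1, at 2.71% against a lowest of 2.69%. Its place among the autosomes therefore depended on the library and on the quantity.

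The right cluster spans 77.2% to 98.3% of the chromosome, an arm position, and there chromosome IV was the lowest of the 5 autosomes in all 3 lists. Its 119.2 combined peaks per Mb stood against 213 on V, 220 on II, 250 on I and 311 on III. In replicate 1 the cluster had 99.7 and the other autosomes 185 to 261. In replicate 2 it had 82.2 and the others 147 to 228. The cluster held 0.48 times the mean of the other autosomes in the combined list and 0.47 times in each replicate list. Covered length showed the same, with 7.61% in the cluster and 12.5% to 20.4% on the other autosomes. Set instead beside the mirrored stretch near the left end, the right cluster was again the lowest in peaks per Mb in each list, but only narrowly so. The lowest of the other chromosomes had 129 combined peaks per Mb there. In covered length it was not the lowest, since 1 mirrored stretch had 6.84%.

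**Figure D2:**
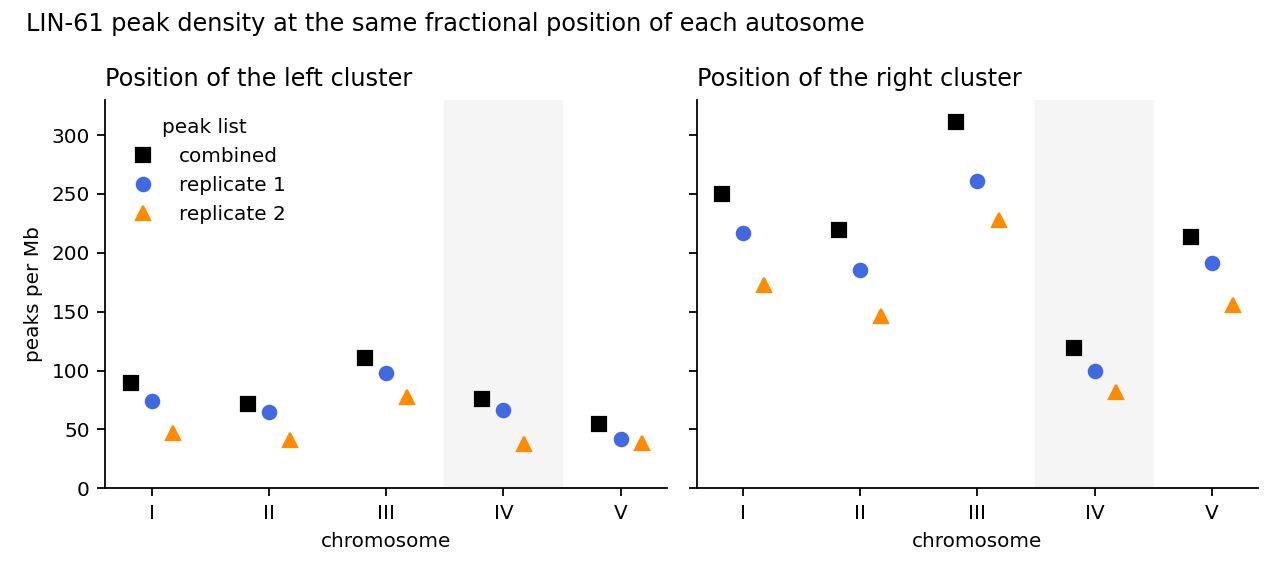
LIN-61 peaks per Mb in the left and right cluster of chromosome IV (shaded) and in the stretches at the same fraction of chromosome length on I, II, III and V, with 1 symbol for each peak list. At the position of the left cluster the autosomes interleave, while at that of the right cluster IV is below the others in all 3 lists.

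In width and score, right cluster peaks lay within or near the range of those arm stretches, and the strong peaks were fewer per Mb. Its median peak width of 334 bp in the combined list was a little under the 344 to 358 bp of the other autosomes, and in replicate 2, at 345 bp, it was above their 304.5 to 310 bp. Its median score of 8.47 was within their range of 7.83 to 10.96; the score is the authors' own value for each peak and is used here only to rank peaks and compare medians within a list. Peaks in the top 10% of the combined list by score numbered 11.3 per Mb in the right cluster and 16.7 to 34.8 on the other autosomes, which is 0.45 times their mean, beside 0.48 times for all peaks. As a share of the peaks present, they made up 9.52% in the right cluster, beside 6.84% to 16.3% in those stretches.

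Within chromosome IV, left cluster peaks were narrower and lower in score than right cluster peaks. Left cluster members had a median width of 288 bp (quartiles 193 and 487) and right cluster members one of 334 bp (quartiles 213 and 742). It was 267.5 against 325 bp in replicate 1 and 285 against 345 bp in replicate 2. The median score was 7.19 against 8.47 in the combined list (6.06 against 7.66 for replicate 1, 7.12 against 8.18 for replicate 2). The order was the same in each list, while the replicate means of width, 276 ± 12.4 bp and 335 ± 14.1 bp (SD, n = 2), differed by more than their spread. Between the clusters the combined medians were 284 bp and 6.81, close to the left cluster. The width of right cluster peaks relative to the rest of IV changed sign with the list, at 9 bp narrower in the combined list (13 bp wider for replicate 1, 28 bp wider for replicate 2).

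Strong and wide peaks were counted against the whole list. In the whole combined list 10.1% of peaks were in the top 10% by score with ties counted, and 4.57% were 2 kb wide or more. The left cluster held 13 top-scoring peaks of 189 (6.88%, 95% Wilson interval 4.06 to 11.4) and the right cluster 42 of 441 (9.52%, 7.12 to 12.6), intervals that cover counting error only and treat neighbouring peaks as independent. Both intervals include the background. Between the clusters it was 24 of 516 (4.65%, 3.15 to 6.83). Peaks of 2 kb or more numbered 3 in the left cluster (1.59%), 22 in the right (4.99%) and 21 between them (4.07%). Replicate 1 had 3 and 17 such peaks, and replicate 2 had 0 and 13.

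**Figure D3:**
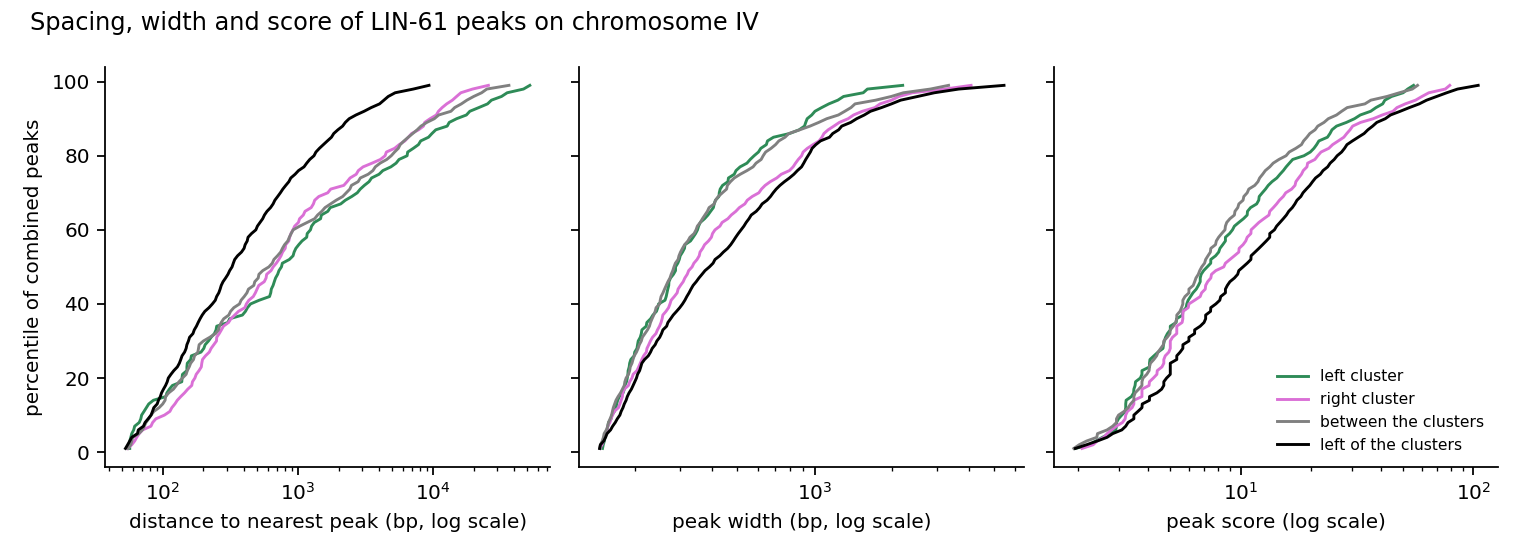
Percentile curves of combined peaks for the distance to the nearest other peak (left), peak width (middle) and peak score (right), each on a log scale, in the clusters and in the neighbouring stretches of chromosome IV. At the median, the left cluster (288 bp) is close to the stretch between the clusters (284 bp) in width and the right cluster (334 bp) is wider, while at the wide end the left cluster falls short of the stretch between, and the median distance is shortest left of the clusters (326 bp).

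The median distance between peaks was longer in the clusters than in the outer left arm. The median distance to the nearest other combined peak was 756 bp in the left cluster, 657 bp in the right cluster, 610.5 bp between the clusters and 326 bp left of them. A neighbour within 1 kb was found for 55.0% of left cluster peaks (95% Wilson interval 47.9 to 62.0), 61.7% of right cluster peaks (57.1 to 66.1) and 75.7% of peaks left of the clusters. In replicate 2 the shares were 41.1% and 54.9% in the clusters. At the other extreme, some peaks lay more than 20 kb from any other. In the combined list they were 14 of 189 in the left cluster and 9 of 441 in the right. Between the clusters they were 21 of 516, and left of them 1 of 1250. Replicate 1 had 11 such peaks among its 166 left cluster peaks and 21 among its 369 right cluster peaks. Replicate 2 had 13 among 95 and 21 among 304. Relative to the number of peaks present, such isolated peaks were thus more frequent in the left cluster whichever list was used, though only slightly so for replicate 1. No background over all chromosomes was counted for them. Joining peaks less than 1 kb apart gave 116 tracts in the left cluster and 257 in the right, or 46.4 and 69.5 per Mb.

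In the combined list the densest part of the left cluster was 1 island of 300 kb. The 3 windows of 100 kb with the most covered sequence were neighbours, from 5500001 to 5800000, and had 25, 18 and 23 combined peaks. They made up 34.9% of the cluster's combined peaks, 38.0% of its replicate 1 peaks and 32.6% of its replicate 2 peaks. Peaks covered 11.0% of the island in the combined list (9.66% for replicate 1, 3.94% for replicate 2). Elsewhere in the cluster they covered 2.28%, 1.77% and 1.16%. The windows were picked by covered length in the combined list, so their excess in that list was set by the choice. In replicate 1 the same 3 windows also had the highest covered length in the cluster. The island was weaker in replicate 2, with 31 peaks against 63 in replicate 1. There its first window, with 2.38% covered, ranked 5 in the cluster, and the window at 4900001 to 5000000, outside the island, ranked 2 with 4.89%. The island's peaks were many rather than strong, with a median combined score of 6.18 against 7.19 for the whole cluster. In covered length its windows ranked 41, 42 and 48 among all windows of IV, where the top 3 lay at 2200001 to 2400000 and 2700001 to 2800000 in the outer left arm.

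The longest stretch of the cluster without a combined peak began inside the last window of the island. From 5780309 to 5936639, over 156 kb, there was no combined peak, no replicate 2 peak and only 2 replicate 1 peaks. Another 119 kb at 5090200 to 5209507 and 101 kb at 6193163 to 6294090 had no combined peak and no replicate 2 peak. Each was touched by 1 replicate 1 peak. In the 119 kb this was the peak over the combined peak at 5089683 to 5090199, which reached across the edge of the stretch. By bins of 500 kb from left to right, the left cluster had 54, 17, 71, 27 and 20 combined peaks. The same bins had 36, 9, 71, 31 and 19 peaks in replicate 1 and 26, 10, 32, 18 and 9 in replicate 2. The bins that start at 4500001 and 5500001 were the highest in each list.

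The right cluster was more even at large scale and uneven at small scale. Its 7 full bins of 500 kb held between 47 and 67 combined peaks. Its windows of 100 kb ranged from 0.61% to 33.0% covered, with a median of 5.75%, beside 0% to 11.7% and 2.15% in the left cluster. The windows with the most covered sequence, at 16400001 to 16500000 (33.0%), 15000001 to 15100000 (19.6%) and 15700001 to 15800000 (17.3%), were far apart. They had the same places in replicate 1, at 28.1%, 15.7% and 15.0%, and in replicate 2, at 23.0%, 12.4% and 10.6%. The first of them ranked 9 among all windows of IV in the combined list (13 for replicate 1, 7 for replicate 2). Over the last 4 windows, from 16800001 to the right limit, combined peaks rose from 16 to 24 and covered sequence from 11.6% to 15.0%. From left to right those windows had 9.48%, 10.8%, 11.0% and 10.8% covered in replicate 1. They had 8.03%, 7.37%, 7.93% and 9.21% in replicate 2, so the rise from window to window was seen in the combined list only.

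**Figure D4:**
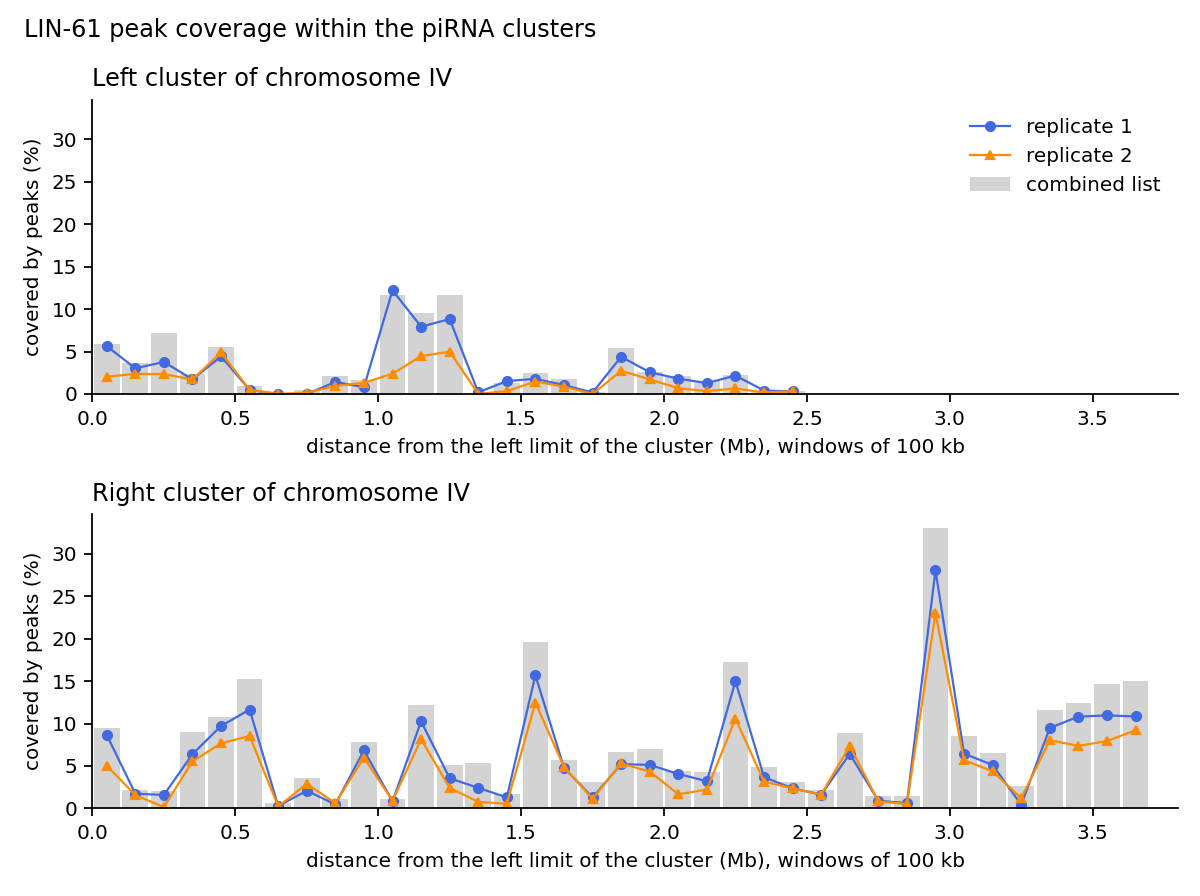
Percent of each 100-kb window covered by LIN-61 peaks in the left and right cluster, against the distance from the left limit of the cluster in Mb, with bars for the combined list and lines for the replicates. In the combined list the left cluster shows 1 island of 3 windows just past 1 Mb, which is lower in replicate 2. The right cluster shows separate windows of up to 33.0%, with the replicates following each other.

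The replicates ordered the windows of each cluster alike. Over the 37 windows of the right cluster, covered length in the replicates had a Spearman correlation of 0.96 and a Pearson correlation of 0.98. Over the 25 windows of the left cluster the values were 0.92 and 0.77. These describe neighbouring windows of the same libraries and are not a test. Only 1 cluster window, 5100001 to 5200000, had no peak in any of the 3 lists. The longest stretches without a combined peak in the right cluster were 139 kb at 16249724 to 16389064, 104 kb at 14341129 to 14445410 and 77.4 kb at 14662576 to 14739997. The first 2 had 1 replicate 2 peak each and the last had none in either replicate.

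The strongest member of the right cluster was a peak of 3983 bp at 15707104 to 15711086, with a score of 118.3, ranked 66 in the combined list. Replicate 1 had 3 peaks over it, the best ranked 96, and replicate 2 had 1, ranked 248. The next was 2050 bp wide at 16168177 to 16170226, with a score of 93.8, where the best peaks ranked 918 in replicate 1 and 71 in replicate 2. Peaks at 13884211 to 13885392 (score 87.6), 16127978 to 16129785 (82.2) and 15076182 to 15078223 (79.5) followed. The remaining 5 of the 10 strongest with both replicates had scores of 75.5 to 78.9 and lay at 16657375 to 16658636, 16487726 to 16502136, 13861540 to 13862945, 15983787 to 15984594 and 14217886 to 14218745. These 10 sites reached from 13861540 to 16658636.

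The widest member, at 16487726 to 16502136, spanned 14411 bp with a score of 78.8. It lay in the best-covered window of the cluster. The replicate lists divided it into 8 peaks in replicate 1, the longest 7940 bp, and 13 peaks in replicate 2, the longest 5140 bp. The next widest were 5029 bp at 14476171 to 14481199 and 4582 bp at 15078294 to 15082875. The first of these was a single peak in both replicates, of 5213 bp and 4758 bp, and the other was 1 peak in replicate 1 and 2 in replicate 2.

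In the left cluster 1 site stood well above the others. A peak of only 461 bp at 6117682 to 6118142 had a score of 108.1, ranked 113 in the combined list (155 for replicate 1, 85 for replicate 2). It lay outside the island. The second, at 4725170 to 4725755, had a score of 55.4 and ranked 788. Next came the widest member of the cluster, 2775 bp at 5751008 to 5753782 inside the island, also with a score of 55.4, which replicate 1 divided into 5 peaks and replicate 2 into 3.

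The other 7 of the 10 strongest left cluster peaks had scores of 41.9 to 53.0. They lay at 4727883 to 4728176, 5571008 to 5571433, 5089683 to 5090199, 4921415 to 4922959, 4720477 to 4720914, 4923646 to 4925266 and 4657783 to 4659327. Of the 10, 6 lay in the first 500 kb, which held 54 of the 189 combined peaks of the cluster. Those at 4921415 and 4923646 lay in 1 tract of peaks less than 1 kb apart, so the 6 are not all separate sites. The other wide members were 2366 bp at 4560514 to 4562879, found as 1 peak of 2301 bp in replicate 1 and 3 short peaks in replicate 2, and 2177 bp at 6348688 to 6350864, found as 3 and 2 peaks.

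The peaks next to the cluster limits are given once, as a description of the rule. At the left limit of the left cluster the nearest combined peak inside, at 4510728 to 4511341, had a score of 41.2 and the nearest outside, at 4480600 to 4480966, had 11.4. At its right limit the values were 14.0 inside (6914294 to 6914676) and 4.99 outside (7031155 to 7031305). At the left limit of the right cluster a peak of 1027 bp at 13499653 to 13500679 straddled the line, with its centre 166 bp inside and a score of 27.1, and the nearest outside, at 13494715 to 13495763, had 9.72. At the right limit the values were 4.99 inside (17185139 to 17185478) and 2.83 outside (17219081 to 17219356). The peak inside had the higher score at all 4 limits, which rests on single peaks.

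The share of members with both replicates was close to that of all peaks, and these members were mostly strong peaks. A combined peak overlapped a peak of both replicates by at least 1 bp in 45.3% of cases over the 6 nuclear chromosomes. In the left cluster it was 75 of 189 (39.7%, 95% Wilson interval 33.0 to 46.8) and in the right cluster 196 of 441 (44.4%, 39.9 to 49.1). Both intervals include the background. A further 64 left cluster peaks (33.9%) were found in replicate 1 only, 11 (5.82%) in replicate 2 only and 39 (20.6%) in neither. In the right cluster the counts were 106 (24.0%), 49 (11.1%) and 90 (20.4%). Over the 6 nuclear chromosomes the shares were 26.5% in replicate 1 only, 7.86% in replicate 2 only and 20.3% in neither. The left cluster was above this in replicate 1 only (95% Wilson interval 27.5 to 40.9). The right cluster was above it in replicate 2 only (8.51 to 14.4). The other intervals of these classes in the clusters included the background.

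Support rose steeply with score in both clusters, as it did in the rest of IV. All 3 lists come from the same 2 ChIP libraries, so combined score and width are not independent of the replicate calls. The values are a description. With the combined list divided into 3 equal parts by score, at 5.65 and 13.8, the strongest part was found in both replicates for 48 of 51 left cluster peaks (94.1%) and 147 of 151 right cluster peaks (97.4%). In the weakest part it was 3 of 73 (4.11%) and 4 of 168 (2.38%). The rest of IV had 595 of 617 (96.4%) in the strongest part and 17 of 588 (2.89%) in the weakest. Members with both replicates were also wider, with a median of 462 bp in the left cluster and 833.5 bp in the right, against 183 and 179 bp for those found in neither. For the rest of IV these medians were 708 bp with both and 186 bp with neither.

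**Figure D5:**
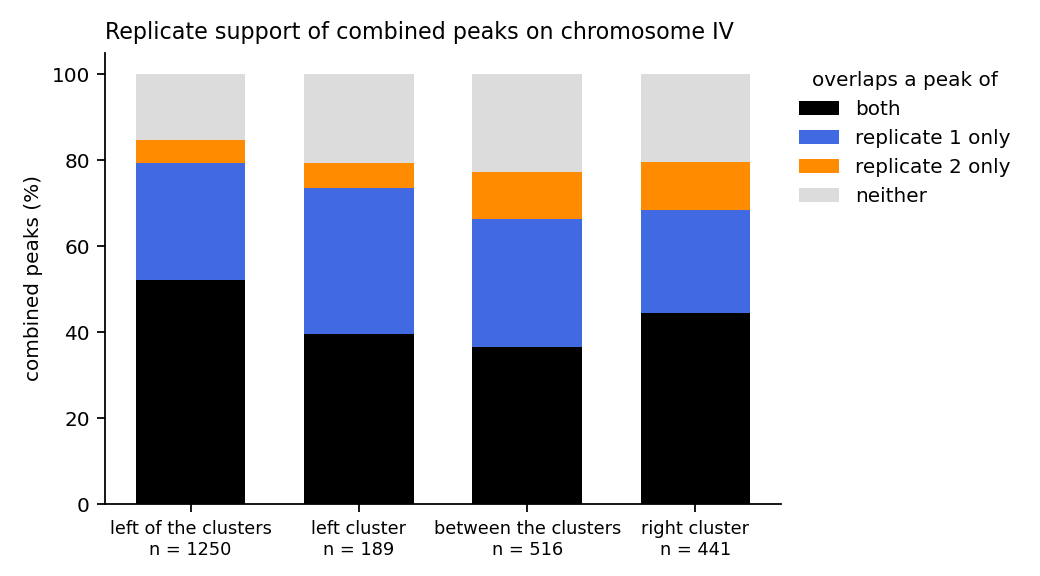
Percent of combined peaks that overlap a peak of both replicates, of replicate 1 only, of replicate 2 only or of neither, in the clusters and the neighbouring stretches of chromosome IV, with the number of combined peaks under each bar. The left cluster has the largest replicate 1 part, at 33.9%, and the stretch left of the clusters has the most peaks with both, at 52.2%.

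Among the stretches of IV, the replicates differed most in number of peaks in the left cluster. Replicate 2 had 0.57 times as many peaks there as replicate 1, beside 0.82 in the right cluster, 0.71 between the clusters, 0.83 left of them and 0.80 over the nuclear chromosomes. Replicate 2 also had fewer peaks at the same position on the other autosomes. The counts in replicates 1 and 2 were 160 and 101 on I, 142 and 89 on II, 193 and 152 on III, and 125 and 116 on V. Of replicate 1 peaks, 59.1% over the nuclear chromosomes had a partner in replicate 2. In the left cluster it was 81 of 166 (48.8%, 95% Wilson interval 41.3 to 56.3), and in the right cluster 228 of 369 (61.8%, 56.7 to 66.6). The left cluster was under the background and its interval did not reach it, as was the stretch between the clusters at 49.3%. It lay within the range at the same position on the other autosomes, 37.3% to 61.7%. The 85 left cluster peaks of replicate 1 without a partner had a median score of 4.40, against 10.47 for the others. Library depth is unknown, and its part in these counts was not tested.

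In the other direction, 85.0% of replicate 2 peaks over the nuclear chromosomes had a partner in replicate 1. The left cluster was at that level, with 81 of 95 (85.3%, 95% Wilson interval 76.8 to 91.0). The right cluster was under it, with 240 of 304 (78.9%, 74.0 to 83.2), and the interval did not reach the background. The stretch between the clusters was lower still, at 75.2% (69.9 to 79.8). The rest of IV was at 86.4%. When 50% of both peaks had to overlap, the share was 52.0% in the right cluster and 50.9% in the rest of IV, so the right cluster was no longer lower than the rest of IV. The 50% rule was not run for the nuclear chromosomes or the other autosomes. With 1 bp of overlap, the share at the same arm position on the other autosomes was 82.7% to 90.4%. The 64 right cluster peaks of replicate 2 without a partner had a median score of 4.49, against 9.70 for those with one. Over pairs of overlapping replicate peaks, each used once, the scores had a Spearman correlation of 0.62 in the left cluster (77 pairs) and 0.65 in the right (212 pairs), as a description.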

How the data were processed

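Per the labels' protocols, frozen and ground L3 larvae were crosslinked with EGS for 20 minutes and with EGS plus formaldehyde for 10 minutes more, and sonicated chromatin was immunoprecipitated and sequenced on Illumina instruments. The authors called binding sites with MACS, per the file headers, which also name the build, WormBase WS220. Version, threshold, control library, aligner and the way the combined list was made: not given in the sources used here. What the deposited score measures is not stated (its lowest value is 1.32 in the combined list), so it was used only to rank peaks and compare medians within a list.

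Libraries were grouped by title. Peaks were assigned by centre, with the cluster limits as given; positions count from 1, and a chromosome ends at the last base of any peak. Covered length counts overlapping bases once. Peaks shared a site when at least 1 bp overlapped. The regions named in each cluster were chosen by a rule: the 10 highest-scoring combined peaks with both replicates, the 3 widest, the 3 best-covered windows of 100 kb, the 3 longest stretches without a peak, and the peaks next to each limit. The clusters, windows, rules and alternatives were chosen with earlier results of these data known. The comparison of width, score and replicate support with the other autosomes, the split by score, the bins of 500 kb and the last 4 windows were chosen after the densities had been seen. The alternatives were other lists, subsets, overlap rules, limits and references. The counting code was tested on simulated data. Depth is unknown, so no precision beyond the Wilson intervals and the spread of 2 replicate lists is given. The tools were pandas 2.3.3, numpy 2.4.6, scipy 1.17.1 and matplotlib 3.10.9 under Python 3.11.15.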

Additional observations from a re-analysis of the deposited data

How the results depend on the processing

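Of 120 alternative values, 65 moved by less than the spread between replicates or stayed within the interval of the reported share, and 55 moved by more. In the alternatives run, both clusters stayed below the rest of IV. The stretch between the clusters as reference was run here on the combined list only. For the left cluster (0.48 as reported) the ratio was 0.598 with peaks less than 1 kb apart merged, 0.32 by covered length and 0.95 against the stretch between the clusters, and 0.33 to 0.46 with 1 replicate left out. For the right cluster (0.75) it was 0.72 at or above the median score, 0.71 with both replicates, 0.894 merged, 0.73 by covered length, 0.73 with limits narrowed by 0.25 Mb, 0.70 with the replicate 1 list cut to the size of the other (chosen after seeing the data) and 0.69 to 0.72 with 1 replicate left out. Against the stretch between the clusters it was 1.50, above 1, because the dense outer arm leaves the reference. The right cluster over the left (1.58) was 2.29 by covered length and 1.50 to 2.16 with 1 replicate left out.

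Median width relative to the rest of IV was unstable. For the left cluster (-55 bp) it was -246 bp with both replicates, -303.5 bp merged, -45.5 bp with limits widened, 4 bp against the stretch between the clusters and -44.5 to -32 bp with 1 replicate left out. For the right cluster (-9 bp) it was 125.5, -94, -20 (limits narrowed) and 50 bp, in the same order, and 13 to 28 bp with 1 replicate left out. The median score difference of the left cluster (-1.52) was -2.60 with both replicates, 0.38 against the stretch between and -1.83 to -0.56 with 1 replicate left out. That of the right cluster (-0.24) was 1.66 against the stretch between and -0.23 to 0.50. The cause of these shifts was not tested.

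Requiring 50% overlap lowers the shares with a partner or with both replicates by construction, and raises those with neither. Replicate 1 peaks with a partner came to 35.5% in the left cluster, 42.8% in the right and 40.5% in the rest of IV, and replicate 2 peaks to 62.1%, 52.0% and 50.9%. Combined peaks with both replicates came to 29.6%, 35.1% and 35.8% when 50% of the peak had to be covered. Those with neither came to 26.5% in the left cluster, 24.9% in the right and 22.2% in the rest, up from 20.6%, 20.4% and 17.7%. With every list, the replicate lists included, reduced to peaks at or above its own median score, the replicate 1 shares were 57.1%, 72.0% and 62.1%, the replicate 2 share was 72.1% in the left cluster, and combined peaks with both replicates were 54.5% in the right cluster, 50.6% in the rest and 38.6% in the left cluster (39.7% as reported), with 16.4% of right cluster peaks in neither. Weak replicate peaks do not count as support there, so these shares are not those of the split by score. The right cluster over the same position on other autosomes (0.48) was 0.50 by covered length, 0.46 for the mirrored position and 0.47 in either replicate list; its replicate spread was 0.0004, so small shifts count as moved. The left cluster (0.93) was 0.75 to 0.95 with 1 replicate left out. No paired analysis was possible because only the ChIP libraries have peaks to compare, and no second group shares their replicate numbers with values analysed here.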
